A study of Homo sapiens with 8 samples.

Results

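Regions enriched in DNA double-strand breaks were described along chromosome 2 in U2OS MycER cells, with or without silencing of CDK12. U2OS is a human osteosarcoma cell line, and MycER is a Myc protein fused to a domain of the oestrogen receptor, so that Myc is switched on by the ligand OHT. The cells carried a doxycycline-inducible shRNA, either non-targeting (shNT) or directed against CDK12 (shCDK12), and every group received 1 µg/mL doxycycline. Both groups used here also had OHT at 300 nM during 40 h. A mitotic arrest with nocodazole (100 ng/mL, 8 h) and a shake-off followed in all groups, and the cells were fixed with 2% paraformaldehyde 18 h after their release. Of the 8 libraries in 4 groups of 2 that the labels give, the lists of 4 were used (shNT+OHT replicates 1 and 2, shCDK12+OHT replicates 1 and 2). The other 4, without OHT, are not analysed here, and a background level without MycER activation is therefore missing from what follows. The labels do not say whether replicates were separate cultures, so the spread between them may be technical. The lists hold coordinates and no reads. Sequencing depth is thus unknown, and the loss of CDK12 could not be checked in them.

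Breaks were mapped by sBLISS, in which the broken ends of fixed cells are ligated to adaptors that carry a unique molecular identifier (UMI), so that each end is counted a single time. The members are all regions listed on chromosome 2, in coordinates of the hg19 build. They were selected on the break signal itself: the calling procedure, as described by a study that reused the shNT+OHT lists, cut the genome into 2 kb bins, kept bins whose UMI coverage passed a fixed threshold, and joined kept bins across gaps of up to 2 kb. A region is therefore a place where the threshold was passed, without a height. Chromosome 2 and its 5 Mb window that ends at 120 Mb were picked with earlier results of these lists in view, so the contrast between groups is given as a description. The lists hold 956 such regions of 10211 on all chromosomes, namely 107 of 1192 and 83 of 788 in the shNT+OHT libraries and 430 of 4581 and 336 of 3650 in the shCDK12+OHT libraries.

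A double-strand break severs both strands of the helix and, left unrepaired, can give rise to deletions and translocations. High Myc activity drives transcription and entry into S phase together, and collisions between the machineries of transcription and replication are a known source of breaks in such cells. CDK12 is a cyclin-dependent kinase that phosphorylates the tail of RNA polymerase II during elongation and is needed for full-length expression of many long genes, DNA repair genes among them. Chromosome 2 is a large chromosome with a centromere that lies nearer the end of its short arm, and it arose in the human lineage by the fusion of ancestral chromosomes. The arms are separated here by the interval from 92.3 to 95.3 Mb, called the centromere gap below.

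More regions were listed on chromosome 2 in shCDK12+OHT cells than in shNT+OHT cells. The mean was 95 ± 17.0 regions (SD, n = 2) with shNT and 383 ± 66.5 (SD, n = 2) with shCDK12, 4.03-fold higher and 2.01 on the log2 scale. The lower shCDK12+OHT library held 336 regions and the higher shNT+OHT library 107, so the groups did not overlap. No support is drawn from a test of these groups, since with 2 libraries against 2 the exact permutation test over the 6 relabellings (two-sided) cannot go below p = 0.333. It took that value in each of the 13 measures tested whose groups were apart, or 0.394 after Benjamini-Hochberg adjustment. Covered length was 272 and 220 kb with shNT and 1430 and 1068 kb with shCDK12, 5.08-fold higher by the group means.

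Regions were also wider after CDK12 silencing. Mean width was 2.54 and 2.65 kb in the shNT+OHT libraries and 3.33 and 3.18 kb in the shCDK12+OHT libraries, a difference of 0.656 kb with no overlap. A region of a single 2 kb bin made up 94.4% (101 of 107) and 95.2% (79 of 83) of the shNT+OHT regions, but 67.7% (291 of 430) and 70.5% (237 of 336) of the shCDK12+OHT regions. Regions of 6 kb, which numbered 1 in each shNT+OHT library, numbered 74 and 47 with shCDK12 and outnumbered those of 4 kb (43 and 39). Under the calling procedure described, kept bins are joined across gaps of up to 2 kb, so a 6 kb region may hold a bin that did not pass. Width and covered length can thus grow as kept bins lie closer together, and are not separate from number. The shNT means rest in part on a single region of 48 kb, listed at the same coordinates in all 4 libraries. Without the widest region of each library the mean width was 2.11 and 2.10 kb with shNT and 3.22 and 3.04 kb with shCDK12. Among regions of at least 4 kb, where the 48 kb region is 1 of 6 and 4 with shNT, the difference in mean width turned to -7.53 kb.

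**Figure D1:**
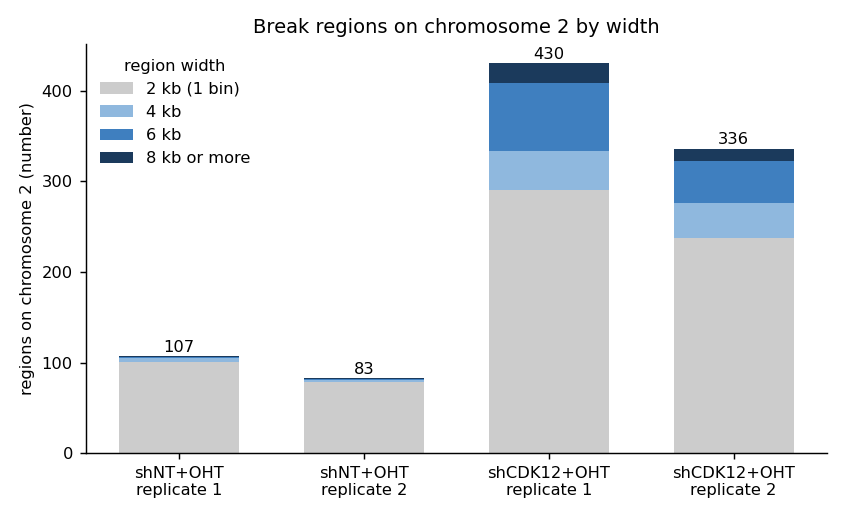
Stacked bars give the number of regions listed on chromosome 2 (vertical axis) in each of the 4 libraries (horizontal axis), split by region width. The shNT+OHT bars reach 107 and 83 and are nearly all single 2 kb bins, whereas the shCDK12+OHT bars reach 430 and 336 and hold wider regions as well.

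Both arms took part to a similar degree. The short arm held 48 and 32 regions with shNT and 188 and 142 with shCDK12 (4.13-fold by the means), and the long arm held 58 and 51 against 241 and 193 (3.98-fold). The share of regions on the long arm was 54.2% and 61.4% with shNT and 56.0% and 57.4% with shCDK12. These shares overlapped (difference of -1.08 percentage points, exact permutation p = 1), and without shNT+OHT replicate 2 the difference turned to 2.54 points. Of the remaining 3 regions, which lie inside the rounded bounds of the centromere gap, 1 each came from shNT+OHT replicate 1 and the shCDK12+OHT replicates, all of them chr2:92316001-92318000.

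The position along the arms differed between the groups more than the arms themselves did. Within 50 Mb of the centromere gap, on both arms together, lay 81 and 70 regions with shNT and 213 and 161 with shCDK12, a 2.48-fold higher mean. Between 50 and 100 Mb from the gap the numbers were 22 and 9 against 155 and 126 (9.06-fold), and beyond 100 Mb, which exists on the long arm only, 3 and 4 against 61 and 48 (15.6-fold). Against shNT+OHT replicate 1 alone the 3 folds were 2.31, 6.39 and 18.2, and against replicate 2 alone 2.67, 15.6 and 13.6. The fold was therefore higher in both outer bands than within 50 Mb of the gap against either library, while the order of the outer bands depended on the library, with at most 22 shNT+OHT regions in each. As a share, the band within 50 Mb held 75.7% and 84.3% of the shNT+OHT regions and 49.5% and 47.9% of the shCDK12+OHT regions. These bands were set after the values had been seen and are given without a test.

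Each arm had a higher fold beyond 50 Mb from the gap than within it. On the short arm the mean number was 2.94-fold higher with shCDK12 within 50 Mb of the gap (38 and 29 against 113 and 84) and 10.2-fold higher beyond it (10 and 3 against 75 and 58, or 6.65-fold and 22.2-fold over the shNT+OHT replicates taken singly). On the long arm the corresponding values were 2.11-fold within 50 Mb (43 and 41 against 100 and 77) and 8.22-fold from 50 to 100 Mb (12 and 6 against 80 and 68, or 6.17-fold and 12.3-fold). The median distance of a region from the gap was 28.6 and 25.2 Mb with shNT and 52.3 and 53.5 Mb with shCDK12. Widths did not follow the same course, since in the shCDK12+OHT libraries the share of single-bin regions was 70.0% and 70.2% within 50 Mb of the gap and 67.2% and 77.1% beyond 100 Mb.

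**Figure D2:**
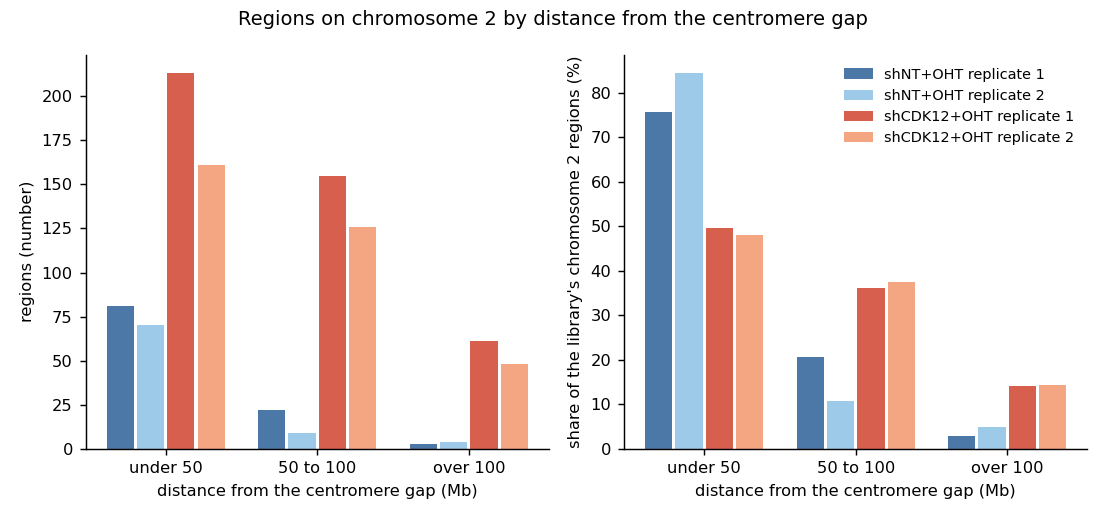
Bars give the number of regions (left) and the share of each library's chromosome 2 regions in percent (right) in 3 bands of distance from the centromere gap, for each of the 4 libraries. The shNT+OHT libraries hold 75.7% and 84.3% of their regions within 50 Mb of the gap, the shCDK12+OHT libraries 49.5% and 47.9%.

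The outermost regions and the empty stretches are given as positions only, since a longer list reaches further out and leaves shorter empty stretches wherever its regions lie. The first region of the short arm began at 10092001 and 14140001 with shNT and at 3520001 and 5834001 with shCDK12. The last region of the long arm ended at 225452000 and 211608000 with shNT, and at 242992000 in both shCDK12+OHT libraries, whose last region was identical. The shNT+OHT libraries therefore listed nothing in the outer parts of either arm where the shCDK12+OHT libraries did. The longest stretch without a region measured 10.5 and 24.5 Mb on the short arm with shNT against 5.45 and 4.61 Mb with shCDK12, and 14.9 and 14.8 Mb against 4.92 and 4.60 Mb on the long arm. Next to the gap the libraries came together: the last short-arm region began at 92268001 in shCDK12+OHT replicate 1 and at 92272001 in the other libraries. The first long-arm region began at 98610001 and 98400001 with shNT and at 96870001 in both shCDK12+OHT libraries.

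Regions also lay closer together after CDK12 silencing. The median distance from a region to the next one was 850 and 931 kb with shNT and 268 and 372 kb with shCDK12. A neighbour within 100 kb was found for 13.1% and 9.64% of the shNT+OHT regions and for 41.6% and 31.0% of the shCDK12+OHT regions. Spacing shortens with any rise in number on a fixed length, so it adds no separate evidence beside the counts.

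The chromosome was then cut into 49 fixed windows of 5 Mb, each region being assigned by its midpoint. The shNT+OHT libraries had a region in 34 and 29 windows and the shCDK12+OHT libraries in 48 each. The number of regions was higher in both shCDK12+OHT libraries than in both shNT+OHT libraries in 44 windows, lower in 1 and overlapping in 4. Over the 271 windows of the 8 chromosomes listed in all 4 libraries, chromosome 2 included, the number was higher in 80.4% and lower in 3.32%. A total of 13 windows had no shNT+OHT region, and 12 of these had a region in both shCDK12+OHT libraries.

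Each window was also expressed as a share of its library's chromosome 2 regions. The share was higher in both shCDK12+OHT libraries in 18 windows, lower in 12 and overlapping in 19, beside 50.6% higher and 19.2% lower over the 271 windows. Of the 18, 12 had no shNT+OHT region, so that any region in both shCDK12+OHT libraries made the share higher. A short list leaves more windows empty, so the share does not fully take out list size. With regions of at least 4 kb, of which the shNT+OHT libraries held 6 and 4, 30 windows were higher and 2 lower. Without shNT+OHT replicate 2, a lone shNT+OHT library being easier to stand apart from, 26 were higher and 20 lower. The windows of each kind lay in different parts of the chromosome. Of the 12 with a lower share, 9 lay within 50 Mb of the gap, whereas this held for 1 of the 18 with a higher share and for 21 of all 49 windows. The position of the higher windows is thus mostly that of windows left empty with shNT. The 5 fullest windows of each library held 34.6% and 43.4% of its regions with shNT and 24.4% and 21.7% with shCDK12. This share rises as a list shortens, and it was not computed at equal list size.

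**Figure D3:**
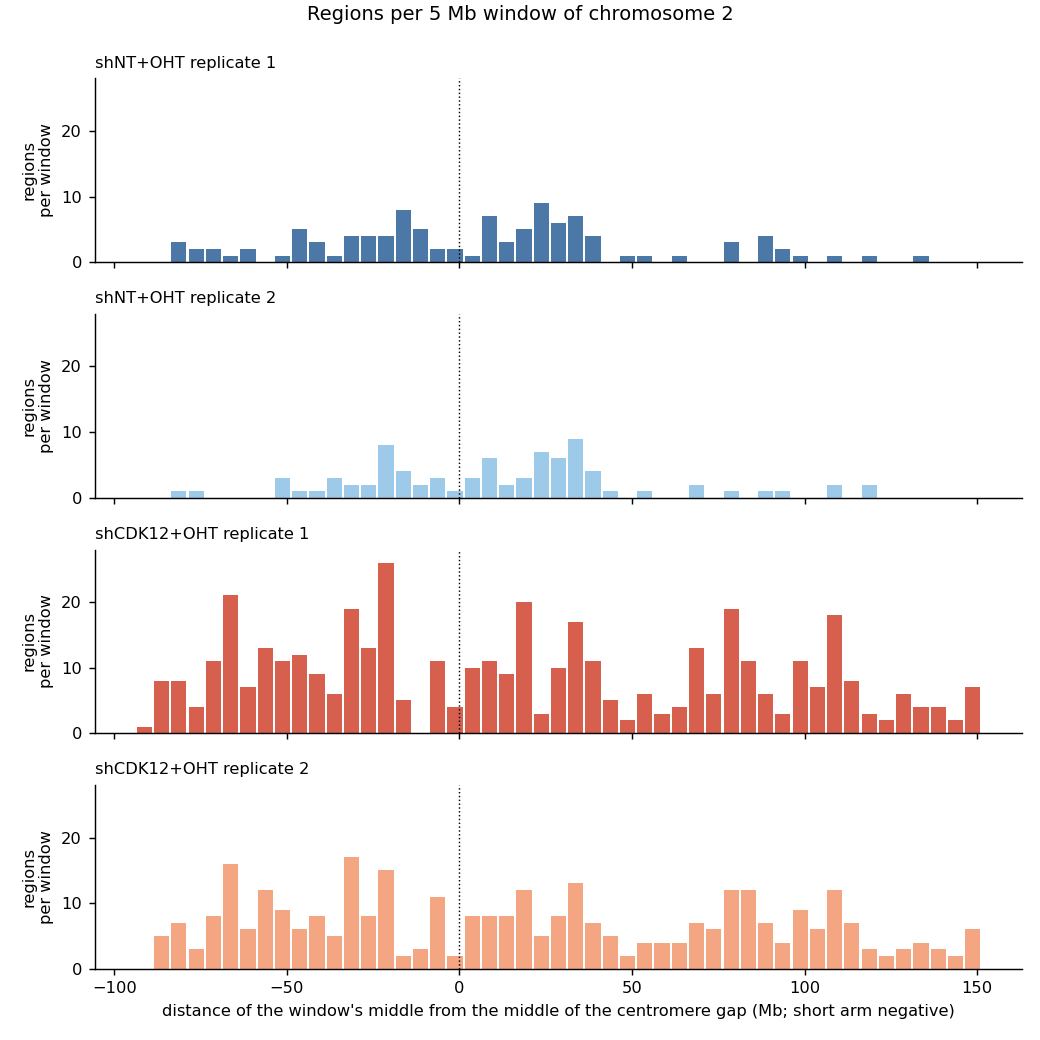
Bars give the number of regions per 5 Mb window (vertical axis) against the distance of the window's middle from the middle of the centromere gap in Mb (horizontal axis, short arm negative), with a panel for each library and a dotted line at the gap. The shNT+OHT counts reach 9 per window and gather around the gap, while the shCDK12+OHT counts reach 26 and extend over both arms.

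The windows that were fullest with shNT gave up share after silencing even where their number rose. The 125–130 Mb window held 7 and 9 regions with shNT and 17 and 13 with shCDK12, yet its share fell from a mean of 8.69% to 3.91%. The 100–105 Mb window held 7 and 6 against 11 and 8 regions (-4.42 percentage points in share), and 120–125 Mb held 6 and 6 against 10 and 8 (-4.06 points). The 75–80 Mb window held 8 and 4 regions with shNT and 5 and 2 with shCDK12, so its number overlapped, while its share fell by 5.27 points without overlap. The 70–75 Mb window was among the fullest in both groups, with 4 and 8 against 26 and 15 regions, and its shares overlapped.

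Other windows filled almost from nothing. The 25–30 Mb window held 1 and 0 regions with shNT and 21 and 16 with shCDK12, the largest rise in share on the chromosome (0.935% and 0% with shNT, 4.88% and 4.76% with shCDK12). No shNT+OHT region lay in the 35–40 Mb window (13 and 12 with shCDK12) or in the 175–180 Mb window (11 and 12). On the outer long arm, 190–195 Mb held 1 and 0 against 11 and 9 regions, and 200–205 Mb held 1 and 2 against 18 and 12. The remaining windows among the 5 fullest with shCDK12 were 60–65 Mb (4 and 2 against 19 and 17), the window from 110 Mb (5 and 3 against 20 and 12) and 170–175 Mb (3 and 1 against 19 and 12). Of these, the window from 110 Mb had overlapping shares, and the other two had a higher share in both shCDK12+OHT libraries.

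The window ending at 120 Mb was the only one of the 49 on chromosome 2 in which the number fell in both shCDK12+OHT libraries. It held 9 and 7 regions with shNT and 3 and 5 with shCDK12, or 8.41% and 8.43% of the shNT+OHT regions against 0.698% and 1.49% (-7.33 percentage points). It was thus level with 125–130 Mb as the fullest shNT+OHT window by mean number, between neighbouring windows whose numbers rose. All its regions were single bins, other than a 4 kb region in shNT+OHT replicate 1. Joined within the group, the shNT+OHT regions numbered 13, of which 1 (chr2:117210001-117212000) was also listed with shCDK12 and 12 were not. Of the 7 joined shCDK12+OHT regions, 6 were not listed with shNT, and chr2:115916001-115918000 was the one found in both replicates. The gained share, 85.7%, was near the 88.1% found over all chromosomes and the 81.7% over the 7 other chromosomes listed in all 4 libraries. The lost share was 92.3%, beside 60.5% over all chromosomes, over 13 regions of which the replicates had 3 in common. With windows moved by 2.5 Mb, the difference in share was -4.93 points at 112.5–117.5 Mb and -2.26 points at 117.5–122.5 Mb, or closer to 0 than the -7.33 points above. This window was chosen for its fall, so its values are a description, and nothing is read from its p among the 13 tests.

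Replicates agreed closely with shCDK12 and poorly with shNT. At a minimum overlap of 1 bp, 252 of the 336 regions of the shorter shCDK12+OHT list were touched by the longer list (75.0%, 95% Wilson interval 70.1 to 79.3), against 17 of 83 with shNT (20.5%, 13.2 to 30.4). These intervals cover counting error only and treat regions as independent, which neighbours are not. Identical coordinates were found for 165 of the 252 and for 11 of the 17. The lists also differ in size, and a longer list is more easily touched. The shNT+OHT regions were in fact touched by a shCDK12+OHT library at least as often as by their own replicate: 35 of 107 regions of replicate 1 by either shCDK12+OHT library (32.7%) against 17 of 107 by shNT+OHT replicate 2 (15.9%).

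At the scale of windows the replicates were compared by correlation. Over the 49 windows, the share of regions correlated at r = 0.759 (Spearman's rho 0.731) between the shNT+OHT replicates and at r = 0.920 (rho 0.919) between the shCDK12+OHT replicates. Between libraries of different groups, r ran from 0.204 to 0.388. These are descriptions across windows of the same chromosome and genome build, and neighbouring windows are not independent. A correlation by window and a share of regions touched are unlike measures without a computed chance level, so they were not ranked against each other.

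To follow single regions between the groups, the replicates of each group were joined into a union. The shNT+OHT union held 170 regions, of which 51 were touched by a shCDK12+OHT region and are called kept (30%, Wilson interval 23.6 to 37.3), and 119 were lost. Over all chromosomes 39.5% were kept, and over the 7 other chromosomes listed in all libraries 39.7%. Taken singly, these 7 ran from 20.7% on chromosome 7 to 66.3% on chromosome 1, a spread that the Wilson interval does not cover. The shCDK12+OHT union held 509 regions, of which 459 were gained, that is touched by no shNT+OHT region (90.2%, 87.3 to 92.5), beside 88.1% over all chromosomes and 81.7% over the 7 others. The value over all chromosomes counts chromosomes missing from a list, so the 7 others are the closer background. Of the shNT+OHT union 20 regions (11.8%) held a region of both replicates, abutting bins included, beside 16% over all chromosomes and 20.9% over the 7 others. Such regions numbered 271 over all chromosomes and 251 over the 7 others. With the 20 on chromosome 2 these make up the whole 271, so chromosomes missing from a list lower the 16%. Of the shCDK12+OHT union 256 did (50.3%), beside 47.7% over all chromosomes and 47.8% over the 7 others.

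Regions seen in both replicates of shNT+OHT were kept more often than the rest, on chromosome 2 and over all chromosomes alike. Of the 20 shNT+OHT regions in both replicates, 14 were kept and 6 lost, whereas 37 of the 150 seen in a single replicate were kept (24.7%). Over all chromosomes the corresponding shares were 76.0% and 32.6%. Of the 256 shCDK12+OHT regions in both replicates, 218 were gained (85.2%). This was above the 76.6% over the 7 others listed in all libraries. The 84.1% over all chromosomes lay closer, but it counts chromosomes missing from a list, with fewer shNT+OHT regions to be touched by. Kept and lost regions were spread over both arms alike, with 23 of 72 kept on the short arm and 27 of 97 on the long arm. The share kept was 30.1% within 50 Mb of the gap (40 of 133 regions, 22.9 to 38.3). It was 27.6% from 50 to 100 Mb (8 of 29, 14.7 to 45.7) and 28.6% beyond 100 Mb (2 of 7, 8.22 to 64.1). The outer intervals are too wide to show whether it moved with distance. The gained share rose, from 84.9% of 259 regions within 50 Mb (80.1 to 88.8) to 95.7% of 184 from 50 to 100 Mb (91.7 to 97.8) and 96.9% of 65 beyond. The shNT+OHT union held 133, 29 and 7 regions in these bands, so outer shCDK12+OHT regions had fewer to be touched by. The rise in gained share therefore adds nothing separate to the band counts.

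Kept regions had the higher mean width, although most of them were single bins with shNT. In the shNT+OHT union the mean width was 3.25 kb for kept and 2.03 kb for lost regions, and in the shCDK12+OHT union 6 kb for shared and 3.02 kb for gained regions. The means for kept and shared regions include the 48 kb region of the short arm. On the long arm the shNT+OHT means were 2.22 kb for kept and 2.03 kb for lost regions. Single bins made up 82.4% of the kept and 98.3% of the lost shNT+OHT regions. A wider region is touched more easily, so width and overlap are not independent measures. Set against the shCDK12+OHT regions that touched them, 31 of the 51 kept regions were wider with shCDK12, 19 had equal width and 1 was narrower. The median was 2 kb with shNT and 6 kb with shCDK12. With shNT, 42 of the 51 were single bins, the smallest width possible. These could not be narrower with shCDK12, so the split was largely fixed in advance. The 51 were touched by 50 shCDK12+OHT regions, so the comparisons are not all separate. Lost regions were mostly not near misses: the median distance to the nearest shCDK12+OHT region was 238 kb (from 0, an abutting bin, to 1784 kb), and 10 of 119 lay within 10 kb.

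**Figure D4:**
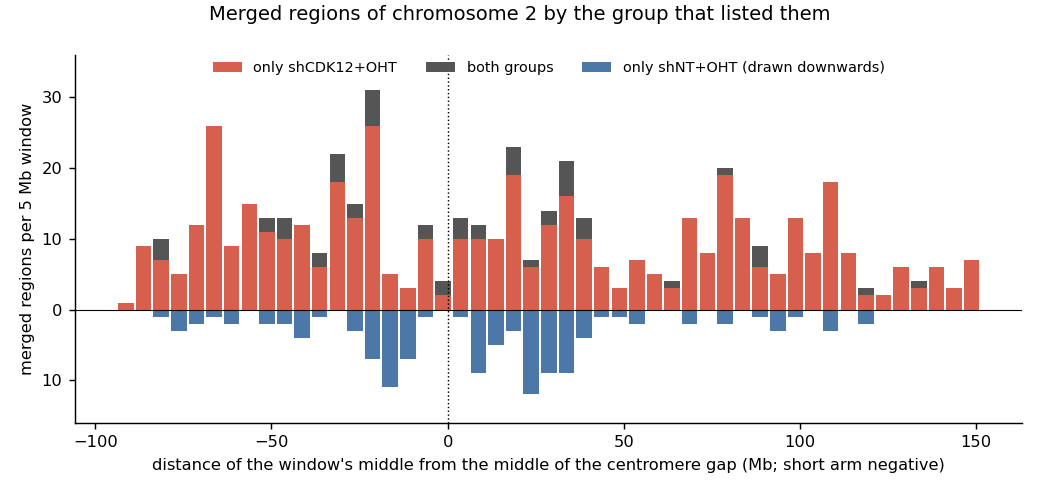
Bars give the number of merged regions per 5 Mb window (vertical axis) by the group that listed them, with regions of shNT+OHT only drawn downwards, against distance from the middle of the centromere gap in Mb (horizontal axis, short arm negative). Regions of shCDK12+OHT only are found along both arms, and those of shNT+OHT only reach 12 in a window and are most frequent around the gap.

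Joining all 4 lists, abutting regions included, gave 626 merged regions. Of these 457 (73.0%) came from shCDK12+OHT libraries only, 117 (18.7%) from shNT+OHT libraries only and 52 (8.31%) from both groups. The class of shNT only rested almost wholly on single libraries, 111 of 117, compared with 239 of 457 in the class of shCDK12 only. Thus 6 regions were listed in both shNT+OHT libraries and in neither shCDK12+OHT library, 218 the other way round and 13 in all 4 libraries. Few lost regions were in both replicates elsewhere too. In the unions above these were 6 of 119 on chromosome 2, 59 of 723 over the 7 other chromosomes and 65 of 1026 over all. For gained regions the corresponding numbers were 218 of 459, 940 of 2098 and 2221 of 4886.

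Of the 13 regions common to the whole set of libraries, 4 tied at 8 kb for the last places among the 5 longest and were taken by position, which favours the short arm. The longest, chr2:89832001-89880000, measured 48 kb in every library and so did not change width. The next, chr2:55642001-55652000, was 2 kb in both shNT+OHT libraries and 10 and 8 kb in the shCDK12+OHT libraries, and chr2:64366001-64376000 was 4 and 2 kb against 8 and 10 kb. Both were wider with shCDK12 than with shNT. Length was measured on the 4 lists joined, which favours regions that are wide with shCDK12. That difference therefore follows in part from the selection. At chr2:48130001-48138000 the widths were 6 and 6 kb against 8 and 6 kb, and at chr2:61106001-61114000 they were 2 and 2 kb against 8 and 4 kb. The tied regions left over were chr2:92268001-92276000 beside the centromere gap (4 and 2 kb against 6 and 4 kb) and chr2:183898001-183906000 on the long arm (2 and 4 kb against 6 and 8 kb).

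The longest regions of both shCDK12+OHT libraries without an shNT+OHT counterpart were taken by the same rule. They were led by chr2:55268001-55280000, at 12 kb in each replicate, on the same arm as the regions just named. The next was chr2:64874001-64884000, at 10 and 6 kb. The class held 11 regions of 8 kb, of which the first by position were chr2:20546001-20554000 (8 and 4 kb), chr2:28110001-28118000 (8 and 8 kb) and chr2:37896001-37904000 (8 and 6 kb). Being first by position places these on the short arm by construction.

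The 6 regions of both shNT+OHT libraries that neither shCDK12+OHT library listed were short, and 3 of them lay in the window ending at 120 Mb. These were chr2:116612001-116616000 (4 and 2 kb), chr2:115784001-115786000 and chr2:117378001-117380000 (2 kb in each). Outside the window, chr2:76470001-76474000 measured 4 and 2 kb, while chr2:103360001-103362000 and chr2:112962001-112964000 were single bins in each replicate. All 6 lay within 50 Mb of the gap. Genes at these coordinates are not named, because an hg19 genome and annotation were not used here.

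Beside the 7 other chromosomes with regions in every list, chromosome 2 was in the upper part for its increase and at the lower end for shNT+OHT agreement. Its log2 ratio of 2.01 ranked 3 of the 8 chromosomes with regions in every list, which ran from 0.49 on chromosome 8 to 2.85 on chromosome 1. Per region on the 7 other chromosomes, chromosome 2 held 0.117 and 0.152 regions with shNT and 0.204 and 0.196 with shCDK12, a log2 ratio of 0.57 with no overlap (exact permutation p = 0.333). Its share of the whole list, in contrast, overlapped (8.98% and 10.5% against 9.39% and 9.21%), since the shCDK12+OHT lists extend to more chromosomes. The mean share of the whole list differed by -0.459 percentage points, so the higher ratio holds beside these 7 chromosomes only. The shNT+OHT replicate agreement of 20.5% was the lowest of the 8 (29.2% to 53.1% on the others) and so was the correlation of window shares between these replicates (0.759, against 0.846 to 0.986). Agreement with shCDK12, at 75.0%, ranked 3, the others running from 66.1% to 76.6%. The share of kept regions, 30%, ranked 7 of 8, above chromosome 7 at 20.7%. These ranks were not tested, as each chromosome gives a single value per replicate pair.

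**Figure D5:**
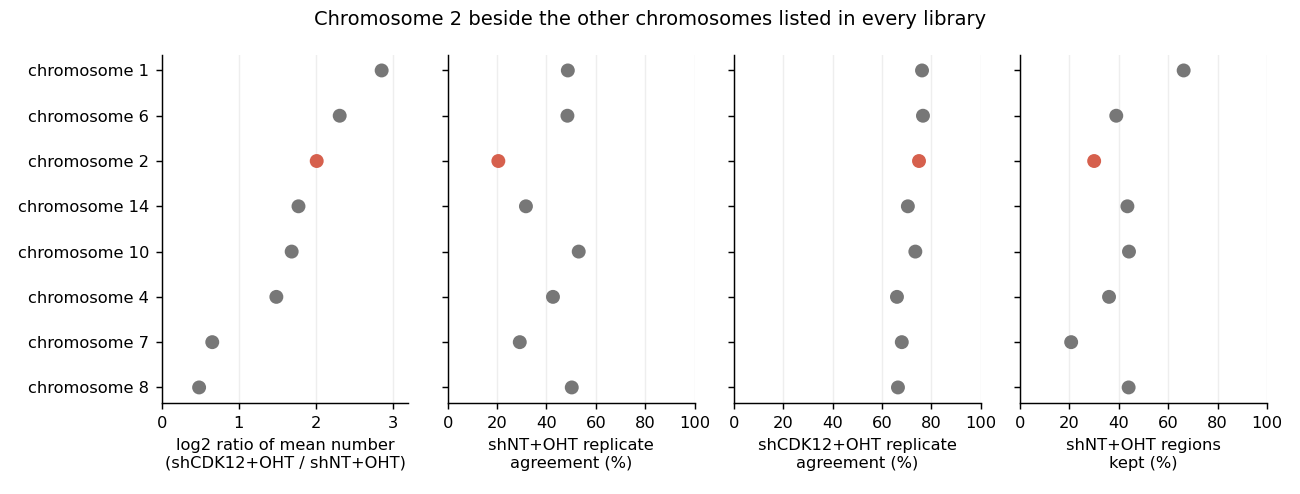
Points give, for the 8 chromosomes listed in all 4 libraries (vertical axis, ordered by log2 ratio, chromosome 2 in red), the log2 ratio of the mean number of regions, the replicate agreement in percent within each group, and the percentage of shNT+OHT regions kept (horizontal axes). Chromosome 2 ranks 3 by log2 ratio (2.01) and has the lowest shNT+OHT agreement (20.5%).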

How the data were processed

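The deposited lists give the start and end of each region in bp, called by the authors for each library separately on hg19 (build per the labels), with no count, signal or score. The aligner for these libraries is not given in the sources used here. A study that reused the shNT+OHT lists describes removal of low-quality alignments, UMI deduplication, down-sampling and 2 kb bins above a fixed UMI threshold. Whether the same threshold and down-sampling applied to all 4 lists is not stated, and both act directly on region numbers. The members, windows and lists were chosen with earlier results of these data known.

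Starts, counted from 0 in the files, were converted to 1-based coordinates. In each shCDK12+OHT list 4 regions lay past the hg38 end of chromosome 2, so hg38 references were not used. Regions were placed by midpoint, joined where they touched or overlapped, and called shared at an overlap of 1 bp. Groups were set against each other with a two-sided exact permutation test (6 relabellings), and shares carry 95% Wilson intervals. Precision is set by the 4 libraries, and depth is unknown. Named regions were the 5 longest of each class (ties by start), and named windows the 5 fullest per group, the 5 largest rises and falls in share, and the window ending at 120 Mb. The code for overlaps and window counts was tested on simulated lists with planted overlaps, and no chance level was computed. Alternatives were leaving out each library, regions of at least 4 kb, merging across 10 kb, leaving out 5 Mb beside the gap, other windows and overlaps, and a replicate block. Python 3.11.15, numpy 2.4.6, pandas 2.3.3, scipy 1.17.1 and matplotlib 3.10.9 were used.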

Additional observations from a re-analysis of the deposited data

How the results depend on the processing

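Of 116 recomputed values over 13 results, 99 kept their direction (for counts and shares, also their range), 14 moved and 3 reversed. With regions of at least 4 kb, of which shNT+OHT held 6 and 4, the difference in mean width became -7.53 kb, and the long-arm difference 16.6 points. At that width the log2 ratio was 4.57 for number, 3.45 for covered length and 2.11 relative to the other chromosomes, the 5 fullest windows differed by -62.8 points, and 30 windows were higher and 2 lower in share. Leaving out shNT+OHT replicate 2 turned the long-arm difference to 2.54 points. With 4 kb regions, shNT+OHT agreement was 50%, the kept share 75% and the gained share 96.3%, over few shNT+OHT regions. The gained share was 93.9% at 50% overlap, 87.2% within 10 kb, and 94.9% using regions in both replicates, where the kept share was 65% (13 of 20). Windows with groups apart in share, 30 as reported, numbered 76 at 2 Mb and 17 at 10 Mb. Leaving out each library in turn gave log2 ratios of 1.82 to 2.21 for number, 2.12 to 2.54 for covered length and 0.39 to 0.78 relative to the other chromosomes. The same gave differences of 0.582 to 0.729 kb in width, -4.70 to 2.54 points for the long arm, -7.72 to -6.93 for the window ending at 120 Mb, -20.3 to -11.5 for the 5 fullest windows and -35.6 to -27.0 for the share within 50 Mb of the gap. It also gave 33 to 46 windows apart, the highest without shNT+OHT replicate 2, a kept share of 25.3% to 35.5% and a gained share of 86.9% to 94.9%. The share within 50 Mb of the gap, the crossed pairing and leaving out the 48 kb region (log2 ratio 2.60 for covered length, 1.03 kb for width) were chosen after seeing the data.

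Deviations of same-numbered libraries from their group mean in window share correlated at -0.19 over the 49 windows. Shares leave out list size, and replicate 1 held the longer list in both groups. Whether same-numbered libraries were handled together therefore cannot be told from this value. Blocking on the replicate number left log2 ratios of 2.01 for number, 2.34 for covered length and 0.58 relative to the other chromosomes, and differences of 0.656 kb in width, -1.08 points for the long arm, -7.33 for the window ending at 120 Mb and -15.9 for the 5 fullest windows. With the block, 33 windows were apart, 30.2% were kept and 92.5% gained. Crossing the pairing gave 34 windows, 22 higher and 12 lower.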
